A study of Mus musculus with 5 samples.

Results

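The genes described here are 39 genes of the hypoxia response and of glycolysis, taken by name from the 55487 genes of the deposited count table through their Ensembl identifiers in GRCm38. They comprise 15 glycolytic enzymes and 24 other genes, of which Hif1a encodes the oxygen-regulated transcription factor itself and the other 23 are known or proposed targets or partners of it. RNA-Seq was performed on HT22 cells, a mouse cell line of hippocampal origin, which had received 10 nM of siRNA for 48 h. The GAS5 knockdown (KD) libraries were 1 from siRNA210 and 2 from siRNA596, both directed at the long non-coding RNA GAS5, and the control libraries were 2 from a negative control siRNA (NC). The sample labels call the control cells untreated, whereas their titles and the treatment protocol give NC siRNA. All cells were of this 1 line and were grown in air with added CO2, the labels name no hypoxic treatment, and no source says whether the replicates were separate cultures, so that P-values measure only the spread between these libraries, which may be technical.

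The library totals ran from 30660265 to 36492134 counts. Gas5 stood at 90.4 and 76.0 CPM (counts scaled to the library total and the TMM factor of edgeR) in NC replicates 1 and 2, at 59.7 in siRNA210 and at 65.9 in siRNA596 replicate 1. It was 179 in the other siRNA596 library, above both NC libraries, which goes against its label, and that library is called the library labelled siRNA596 replicate 2 throughout. The mean signal in the authors' deposited comparison was matched to within 4.9e-08% by the other 4 libraries and missed by up to 349% with all 5, so values for 4 libraries are given first and log2 fold changes for all 5 after them. The sample labels call the cells hippocampal neuronal, and the 8 neuronal markers summed to 52.9 to 106 CPM. Of these, Rbfox3, Snap25, Neurod1 and Prox1 were at 3 counts or fewer in every library. Map2 had 833 to 3336 counts, Tubb3 497 to 970, Slc17a7 44 to 133 and Syn1 20 to 64. The 3 neural progenitor markers summed to 2996 to 4832 CPM, mostly Vim, with Nes at 12449 to 18195 counts and Sox2 at the floor. The 4 fibroblast markers summed to 3833 to 5248 CPM, mostly Col1a1. Col1a2 had 22226 to 45249 counts, Pdgfra 411 to 1601 and Dcn 0 to 28.

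In cells with enough oxygen, the HIF-1α protein is hydroxylated by prolyl hydroxylases such as Egln1, bound by the von Hippel-Lindau protein and degraded. When oxygen falls, it accumulates, pairs with Arnt and binds short elements with the core RCGTG near its targets. Those targets raise glucose uptake, glycolysis and lactate export, hold pyruvate away from the mitochondria, remove mitochondria, buffer acid and promote the growth of vessels, and many glycolytic enzymes are also transcribed at high levels in dividing cells under normal oxygen.

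The promoter stretches of 7 member genes from both classes are shown. The library differences described below were widest in Ero1l and smaller in Ldha, and they were not compared with the letters of promoters. Each stretch is 150 bases upstream of a RefSeq transcript start on GRCm38.p6, written along the strand of the gene. Capitals mark ACGTG or GCGTG on either strand, read as CACGT or CACGC on the opposite strand and merged where they overlap. Ero1l (chr14:45318573-45318722, minus strand), Bnip3 (chr7:138909507-138909656, minus), Pdk1 (chr2:71873074-71873223, plus) and P4ha2 (chr11:54100774-54100923, plus) are targets outside glycolysis proper, Ldha (chr7:46845654-46845803, plus) and Pgk1 (chrX:106186950-106187099, plus) are enzymes, and Vegfa (chr17:46032378-46032527, minus) has no core in this stretch.
Ero1l: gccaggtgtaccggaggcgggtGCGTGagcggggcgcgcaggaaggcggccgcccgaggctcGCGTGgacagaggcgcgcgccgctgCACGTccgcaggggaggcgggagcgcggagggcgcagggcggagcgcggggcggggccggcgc
Bnip3: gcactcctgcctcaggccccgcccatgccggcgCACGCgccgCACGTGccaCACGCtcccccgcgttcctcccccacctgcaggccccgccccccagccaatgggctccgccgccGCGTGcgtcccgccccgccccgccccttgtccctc
Pdk1: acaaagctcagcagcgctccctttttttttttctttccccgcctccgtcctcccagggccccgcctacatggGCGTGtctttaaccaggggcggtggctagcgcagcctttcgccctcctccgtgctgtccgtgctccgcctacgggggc
P4ha2: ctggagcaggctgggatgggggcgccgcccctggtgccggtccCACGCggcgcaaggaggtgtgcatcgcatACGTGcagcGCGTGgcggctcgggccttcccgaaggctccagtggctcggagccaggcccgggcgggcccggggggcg
Ldha: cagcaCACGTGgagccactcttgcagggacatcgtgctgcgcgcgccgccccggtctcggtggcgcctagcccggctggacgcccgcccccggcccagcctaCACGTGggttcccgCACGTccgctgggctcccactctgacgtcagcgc
Pgk1: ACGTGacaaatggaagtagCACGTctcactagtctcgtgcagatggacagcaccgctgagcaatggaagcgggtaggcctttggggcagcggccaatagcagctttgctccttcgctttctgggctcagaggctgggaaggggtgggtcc
Vegfa: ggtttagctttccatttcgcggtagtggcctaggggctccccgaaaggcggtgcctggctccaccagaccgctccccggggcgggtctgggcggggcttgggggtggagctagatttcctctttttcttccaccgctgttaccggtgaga

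RefSeq promoters were found for 36 of the 39 members, and Slc2a3, Bnip3l and Ndrg1 had no entry. In the 250 bases upstream of any listed start, ACGTG on either strand was present in 22 of the 36 (61.1%), compared with 18.5% of 27025 genes and 24.5% of the 10648 tested genes with an entry. It was present in 7 of 15 enzymes and in 15 of 21 other members. ACGTG or GCGTG was present in 32 of 36 (88.9%), compared with 41.5% of all genes and 60.3% of tested genes. A gene with several starts has more chances to hold a core, and a match is a run of letters and not a measured binding site. The Vegfa stretch shows only that these letters are not in this window. A further listed start of Vegfa has 2 cores in its 250 bases, 1 of them ACGTG, so Vegfa is among the 22. A further start of Pdk1 has 0 cores, and that of Ldha has 1.

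The members differed by orders of magnitude in level. Per length of the longest transcript, over the 4 libraries of the main fit, the 9 highest were all enzymes, led by Ldha (1948 RPKM), Pkm (1795) and Eno1 (1788) and followed by Pgk1, Aldoa, Tpi1, Pgam1, Gpi1 and Pfkl. Ddit4 came next with 133 RPKM (reads per kilobase of transcript, scaled like CPM), and the lowest were Aldoc (0.624), Car12 and Slc2a3 (0.0468). The 15 enzymes took 2.37% of all counts in NC replicate 1, 1.75% in NC replicate 2, 2.50% in siRNA210, 2.34% in siRNA596 replicate 1 and 1.71% in the fifth library, the one labelled siRNA596 replicate 2. The 24 other genes took 0.503%, 0.333%, 0.544%, 0.498% and 0.160% in the same order. The other genes were thus lowest in the library labelled siRNA596 replicate 2, and next lowest in NC replicate 2.

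In the comparison of KD with NC over 4 libraries, every member tested had a higher level in KD, but by little. In bulk RNA, more expressing cells and more RNA per cell cannot be told apart. With edgeR, 38 of the 39 members passed the filter on low counts (Slc2a3 did not), and all 38 had a log2 fold change above 0, compared with 49.5% of the 15867 genes tested. Their log2 fold changes ran from 0.11 to 0.81, with a median of 0.25 in the 15 enzymes and 0.29 in the 23 other genes, against -0.0023 over all genes tested. At an unadjusted P under 0.05, 5 members were higher (Ddit4, Pfkfb4, Slc2a1, Vegfa and Hk1) and 0 were lower, where 1.75% and 1.55% of all genes were. None passed with 2-fold (0.876% of all genes did). After Benjamini-Hochberg adjustment in edgeR, 0 members and 0 of all 15867 genes passed, with adjusted P of the members between 0.967 and 0.978. The Wald test of DESeq2 put 6 members under an unadjusted P of 0.05, all higher (1.34% of all genes higher, 0.983% lower).

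These 38 values share 2 control libraries, and 36 of them were lower without NC replicate 2, Pfkfb3 and Pfkfb4 being the exceptions. Without it, 32 of the same 38 members were above 0 (33 of 39 with Slc2a3, 50.8% of all genes), the medians were 0.05 in enzymes and 0.08 in the others, and only Pfkfb4 had an unadjusted P under 0.05 and was higher (1.4% of all genes were higher and 1.12% lower), with 0 members past 2-fold as well (1.04%). Without NC replicate 1, 39 of 39 were above 0, the medians were 0.44 and 0.57, and 32 members, 13 of them enzymes, had an unadjusted P under 0.05, where 9.39% of all genes were higher and 7.06% lower. Car12, Ero1l and Ndrg1 were also past 2-fold there (2.22% of all genes). The smallest adjusted P there was 0.207 in edgeR. Without siRNA210, 0 members passed the unadjusted threshold (0.379% of all genes were higher and 0.627% lower), and without siRNA596 replicate 1, 4 members were higher (0.853% and 1.24%).

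With all 5 libraries, the enzymes and the other genes parted. In edgeR 24 of 39 members were above 0 (51.0% of all genes), namely 12 of 15 enzymes and 12 of 24 others, and the medians were 0.16 and -0.0064. Of the 38 members above 0 with 4 libraries, 15 were below 0 with 5. At an unadjusted P under 0.05, 0 members were higher and 0 lower, and 0.192% and 0.18% of all genes were (0.353% with 2-fold as well). Adjusted P ran from 0.963 to 0.999 in edgeR.

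**Figure D1:**
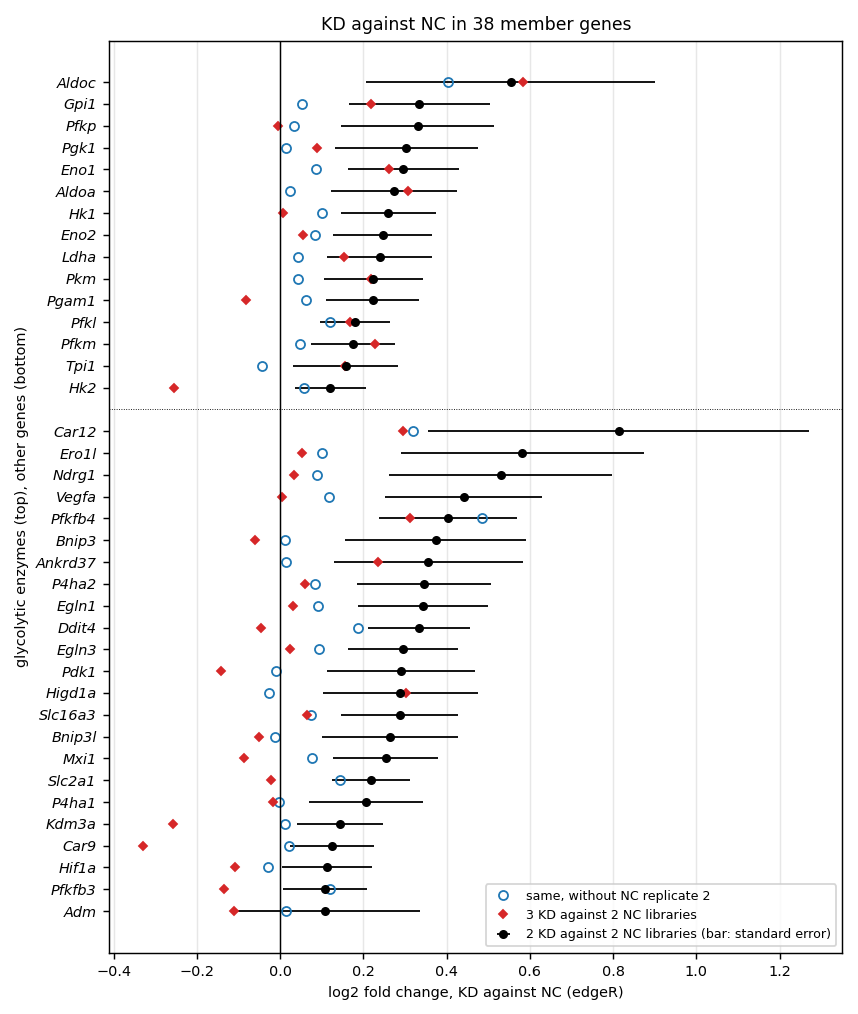
Log2 fold change of KD against NC on the horizontal axis for the 38 members tested with 4 libraries, enzymes above and other genes below. Black points with standard errors are 2 KD against 2 NC libraries and all lie above 0, blue circles leave out NC replicate 2 and sit near 0 for most genes, and red diamonds use 3 KD libraries and fall on both sides of 0.

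Among the transporters, Slc2a1, the main glucose transporter of most cell types, gave 9708 and 9483 counts in NC replicates 1 and 2, 11558 in siRNA210, 10257 in siRNA596 replicate 1 and 4289 in the fifth library. Both KD libraries of the main fit lay above both NC libraries (16.5% of all genes), and the fifth library lay far below all of them. Its log2 fold change was 0.22 ± 0.09 (SE) with 4 libraries (unadjusted P = 0.043, adjusted P = 0.967 in edgeR) and -0.02 with 5. Slc16a3, which exports lactate, had a log2 fold change of 0.29 with 4 libraries (unadjusted P = 0.070 in edgeR) and 0.06 with 5. Slc2a3, the neuronal glucose transporter, had 4 to 23 counts per library and was near the floor of 3 counts.

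Among the enzymes, Ldha, which turns pyruvate into lactate and was the highest of all members per length, gave 130888 and 105838 counts in NC replicates 1 and 2, 142463 in siRNA210, 131546 in siRNA596 replicate 1 and 83275 in the fifth library. On the scaled level the lowest of the 5 was NC replicate 2 (2759 CPM), and the fifth library stood at 3154 CPM against 3677 to 3982 CPM in the remaining 3. Its log2 fold change was 0.24 ± 0.13 (SE, unadjusted P = 0.090 in edgeR) with 4 libraries and 0.15 with 5. Hk1, the hexokinase bound to mitochondria that takes glucose into the pathway, gave 15252 and 13145 counts in NC, 17451 and 15824 in siRNA210 and siRNA596 replicate 1, and 6318 in the fifth library. In the 4 libraries both KD levels lay above both NC levels, an order found in 16.5% of all genes. The gap was narrow, with 442 CPM in siRNA596 replicate 1 and 434 CPM in NC replicate 1. The log2 fold change of Hk1 was 0.26 ± 0.11 (unadjusted P = 0.049, adjusted P = 0.967 in edgeR), 0.10 without NC replicate 2 and 0.0061 with 5. It was the single enzyme past the unadjusted threshold, and the other 14 ran from 0.12 in Hk2 to 0.55 in Aldoc, which had 48 to 83 counts per library. With 5 libraries these 2 were at -0.25 and 0.58, and Pfkp (-0.0055) and Pgam1 (-0.08) were also below 0.

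Among the regulators of flux, Pfkfb4, which makes the allosteric activator of phosphofructokinase, gave 261 and 317 counts in NC, 385 and 358 in siRNA210 and siRNA596 replicate 1, and 222 in the fifth library. In CPM all 3 libraries labelled KD (8.41 to 10.8) lay above both NC libraries (7.42 and 8.26). This order was shared with Aldoc, Pfkl and Pfkm alone among the members and was found in 8.3% of all genes. The lowest of the 3 was the fifth library, in which Gas5 was above both NC libraries. The log2 fold change of Pfkfb4 was 0.40 ± 0.17 with 4 libraries (unadjusted P = 0.038, adjusted P = 0.967 in edgeR) and 0.31 with 5. Pdk1, the kinase that shuts off pyruvate dehydrogenase, gave 10036 and 6827 counts in NC, 10527 and 9755 in KD and 1648 in the fifth library. NC replicate 2 was below the other 3 of the main fit, and the fifth library was far below NC replicate 2. The log2 fold changes with 4 and with 5 libraries were 0.29 and -0.14 in Pdk1, and 0.11 and -0.13 in Pfkfb3, which shares the activity of Pfkfb4.

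Among the oxygen sensing genes, Egln1, the main prolyl hydroxylase acting on HIF-1α, gave 13976 and 10323 counts in NC, 16010 and 14253 in KD and 4645 in the fifth library. The KD libraries lay above both NC libraries (16.5% of all genes) by a narrow gap to NC replicate 1. The log2 fold change was 0.34 ± 0.16 (unadjusted P = 0.055 in edgeR) with 4 libraries and 0.03 with 5. Egln3, a hydroxylase that is itself a target, had 0.29 (unadjusted P = 0.052) and 0.02, and the Hif1a messenger, whose protein is set mainly by degradation, had 0.11 (unadjusted P = 0.32) and -0.11.

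Vegfa, the secreted factor that draws in vessels, gave 6398 and 4171 counts in NC, 7213 and 6908 in KD and 1115 in the fifth library. The NC libraries were further apart from each other than NC replicate 1 was from either KD library, and the fifth library was below all. The log2 fold change was 0.44 ± 0.19 with 4 libraries (unadjusted P = 0.044, adjusted P = 0.967 in edgeR) and 0.0035 ± 0.67 with 5. Adm, which encodes the vasodilator adrenomedullin, had 72 to 186 counts per library and log2 fold changes of 0.11 with 4 libraries and -0.11 with 5.

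Of the genes for mitochondria and acid balance, Bnip3, a receptor that marks mitochondria for removal, gave 7993 and 4824 counts in NC, 8766 and 7611 in KD and 1316 in the fifth library. NC replicate 1 lay between the KD libraries, and NC replicate 2 lay below all 3, with log2 fold changes of 0.37 ± 0.22 with 4 libraries and -0.06 with 5. Car9, a carbonic anhydrase of the cell surface often used as a marker of hypoxia, gave 2443 and 2290 counts in NC, 2624 and 2418 in KD and 345 in the fifth library. The first 4 overlapped between KD and NC, and the fifth was at 20.2% of the mean CPM of NC, with log2 fold changes of 0.12 with 4 libraries and -0.33 with 5. Bnip3l, a relative of Bnip3, went from 0.26 with 4 libraries to -0.05 with 5, and Higd1a from 0.29 to 0.30. Car12, with 4 to 72 counts per library, had 0.81 ± 0.46 with 4 and 0.30 with 5.

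The genes for protein folding and collagen held the member with the widest range. Ero1l, which forms disulfide bonds in the endoplasmic reticulum, gave 21481 and 10085 counts in NC, 24373 and 22451 in KD and 1309 in the fifth library. NC replicate 2 was at 43.0% of NC replicate 1 in CPM and the fifth library at 8.12%, while siRNA210 and siRNA596 replicate 1 were at 112% and 103% of it. Its log2 fold change was 0.58 ± 0.29 with 4 libraries (unadjusted P = 0.077 in edgeR), 0.10 without NC replicate 2 and 0.05 with 5 libraries. P4ha2, a collagen prolyl hydroxylase subunit, gave 14047 and 10209 counts in NC, 16110 and 14183 in KD and 5114 in the fifth library, and NC replicate 1 lay between the KD libraries in CPM. Its log2 fold changes were 0.35 with 4 libraries and 0.06 with 5, and those of its relative P4ha1 were 0.21 and -0.016.

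In the stress and chromatin groups, Ndrg1, a gene strongly induced by stress, gave 14699 and 7568 counts in NC, 17252 and 14540 in KD and 1451 in the fifth library. NC replicate 2 and the fifth library stood apart from the remaining 3 as they did for Ero1l, and the log2 fold changes were 0.53 ± 0.27 with 4 libraries and 0.03 with 5. Ddit4, an inhibitor of mTORC1, gave 8046 and 7056 counts in NC, 10200 and 8425 in KD and 2092 in the fifth library. Both KD libraries lay above both NC libraries in the 4 libraries, as in 16.5% of all genes. The log2 fold change of Ddit4, 0.33 ± 0.12, had the smallest P of all members (unadjusted P = 0.024, adjusted P = 0.967 in edgeR). It was 0.19 without NC replicate 2 and -0.05 with 5 libraries. Kdm3a, a histone demethylase, gave 3681 and 3302 counts in NC, 3900 and 3643 in KD and 755 in the fifth library, and its log2 fold change turned from 0.14 with 4 libraries to -0.26 with 5. Mxi1, an antagonist of Myc, turned from 0.25 to -0.09, and Ankrd37, with 346 to 564 counts in the 4 libraries, went from 0.36 to 0.23.

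**Figure D2:**
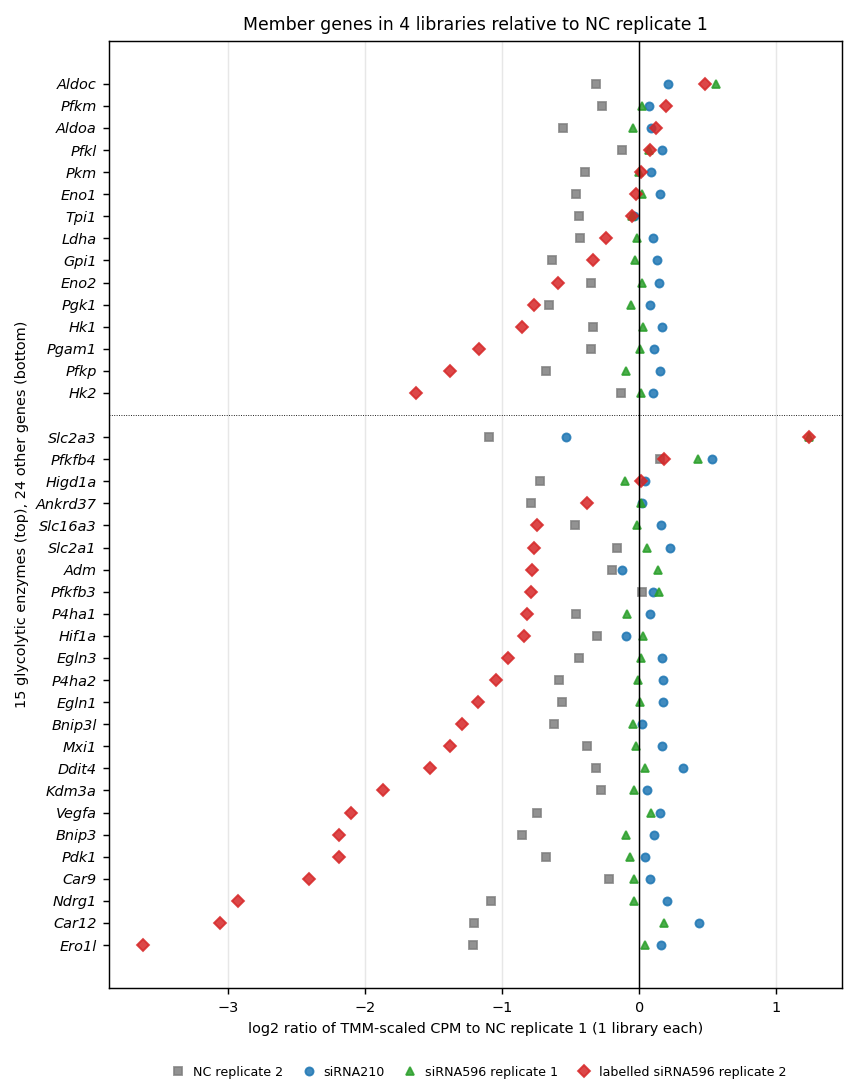
Log2 ratio of TMM-scaled CPM to NC replicate 1 on the horizontal axis for all 39 members, 1 point per library, enzymes above and other genes below. Grey squares (NC replicate 2) lie left of 0 for 37 of 39 genes, siRNA210 and siRNA596 replicate 1 cluster near 0, and red diamonds (the library labelled siRNA596 replicate 2) reach -3.62 in Ero1l and stay near 0 in Pkm, Eno1 and Aldoa.

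Compared pair by pair, the libraries differed most where NC replicate 2 or the library labelled siRNA596 replicate 2 took part. In NC replicate 2 over NC replicate 1, the median log2 ratio was -0.40 in enzymes and -0.52 in the other genes, and 3 enzymes and 11 others were more than 1.5-fold lower, where 10.3% of the 16142 genes were, and 0 were higher (8.15%). With 1 library on each side no test was made. NC replicate 2 was the lowest of the 4 libraries in 37 of 39 members, all 15 enzymes among them (34.1% of all genes), with Pfkfb3 and Pfkfb4 as the exceptions. siRNA210 was the highest of the 4 in 33 of 39 (26.1% of all genes), and both KD libraries lay above both NC libraries in 18 of 39, 8 enzymes and 10 others (16.5% of all genes), and below both in 0 (16.2%). NC replicate 1 lay between the KD libraries in 20 of 39 (34.6% of all genes). The ratio of siRNA210 over NC replicate 1 also followed the GC content of transcripts, as given below.

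The remaining pairs of the 4 libraries were closer. siRNA210 over NC replicate 1 had medians of 0.11 in enzymes and 0.13 in the others, with 0 members past 1.5-fold in either direction, where 5.82% of all genes were higher and 7.94% lower. siRNA596 replicate 1 over NC replicate 1 had medians of 0.0074 and 0.0077, and over siRNA210 of -0.12 and -0.13. In both of these pairs Slc2a3, at its few counts, was the single member more than 1.5-fold higher (6.18% and 7.58% of all genes) and 0 were lower (6.75% and 5.85%). Against NC replicate 2, siRNA210 had medians of 0.51 and 0.63 with 19 members more than 1.5-fold higher (9.65% of all genes) and 0 lower (9.11%), and siRNA596 replicate 1 had 0.39 and 0.51 with 12 members higher (9.74%) and 0 lower (7.75%).

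**Figure D3:**
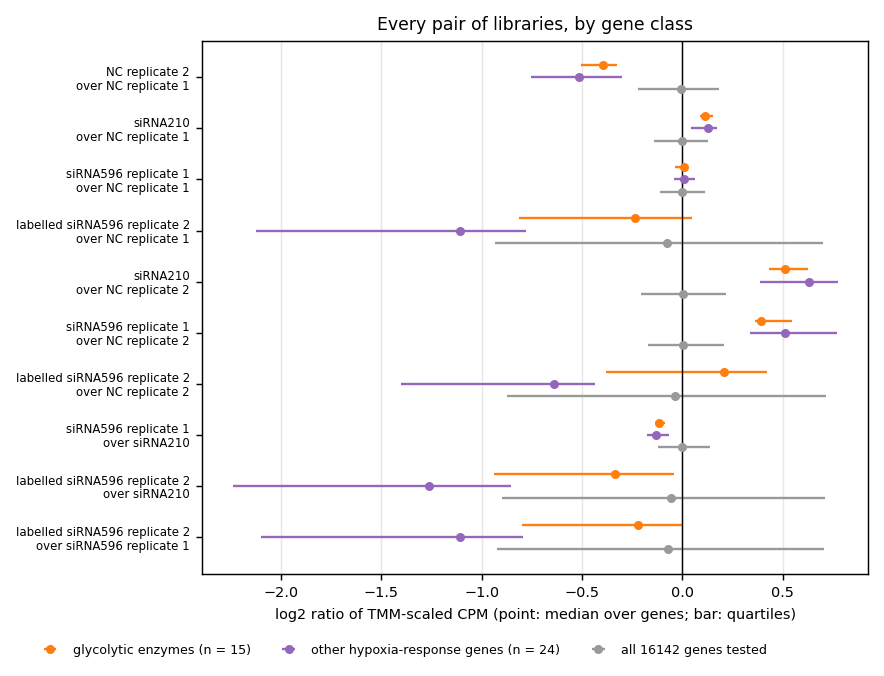
Median log2 ratio of TMM-scaled CPM with quartile bars for each of the 10 pairs of libraries, for 15 enzymes, 24 other genes and all 16142 genes. Both classes shift together in pairs with NC replicate 2, and they part in pairs with the library labelled siRNA596 replicate 2, where the other genes lie lower.

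The 2 classes were furthest apart in the pairs with the library labelled siRNA596 replicate 2. Over NC replicate 1, its median log2 ratio was -0.24 in enzymes and -1.11 in the other genes, and 6 of 15 enzymes and 20 of 24 others were more than 1.5-fold lower, where 34.3% of all genes were. Slc2a3 was the single member more than 1.5-fold higher (28.6% of all genes). Over siRNA210 the medians were -0.34 and -1.27 (33.4% of all genes lower and 28.6% higher) and over siRNA596 replicate 1 they were -0.22 and -1.11 (34.1% lower and 28.5% higher), each with the same counts of 6 and 20. Over NC replicate 2 they were 0.21 and -0.64, with 3 enzymes and 15 others lower (32.7%) and 2 of each higher (28.9%). This library was the lowest of all 5 in 26 of 39 members, 6 of 15 enzymes and 20 of 24 others (43.7% of all genes), and the highest in Aldoa, Pfkm and Slc2a3 (40.1% of all genes).

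The widest falls against NC replicate 1 were in Ero1l (log2 ratio -3.62), Car12 (-3.06, from 52 to 4 counts), Ndrg1 (-2.93), Car9 (-2.41), Bnip3 (-2.19), Pdk1 (-2.19) and Vegfa (-2.11). Within the enzymes, Hk2 (-1.63), Pfkp (-1.38) and Pgam1 (-1.17) were low. Pkm (0.02), Eno1 (-0.03), Tpi1 (-0.05) and Aldoa (0.12) were close to NC replicate 1. The division was therefore not complete, and Higd1a (0.01) among the other genes was also level.

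**Figure D4:**
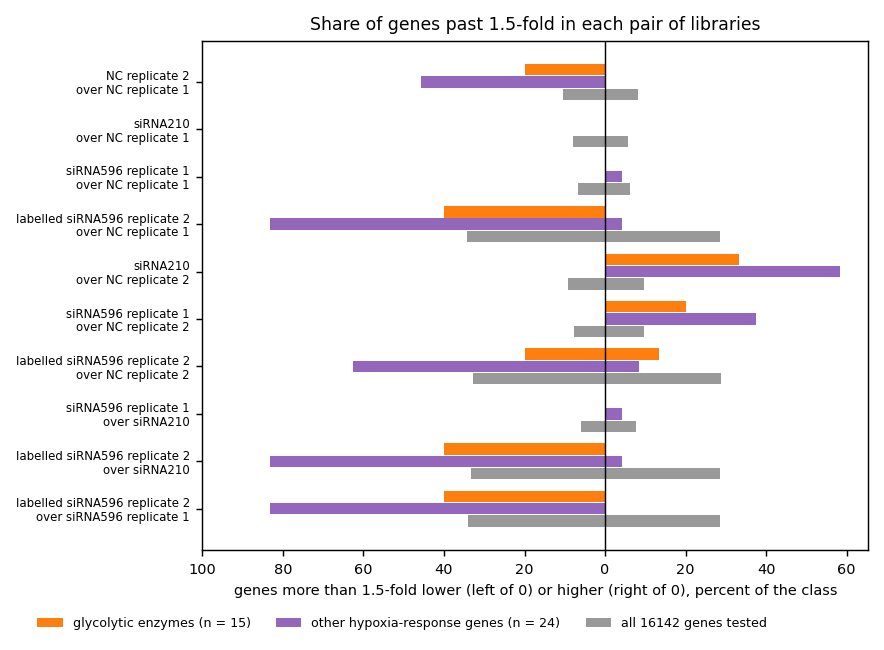
Percent of genes more than 1.5-fold lower (left of 0) or higher (right of 0) in each of the 10 pairs of libraries, for the 15 enzymes, the 24 other genes and all 16142 genes. In the pairs of the library labelled siRNA596 replicate 2 with NC replicate 1, siRNA210 and siRNA596 replicate 1, 20 of 24 other genes are on the left, and siRNA210 over NC replicate 1 has no member bar.

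Transcript length moved with the same pairs. Across 10568 genes of at least 5 CPM, the log2 ratio of the library labelled siRNA596 replicate 2 over NC replicate 1 had a Spearman rho of -0.68 with the longest transcript, and it lay between -0.67 and -0.71 in the 4 pairs with that library, while the other 6 pairs lay between -0.14 and 0.18. Genes share the libraries in this correlation, which is a description across genes. The enzymes had a median longest transcript of 2786 bases and the other members one of 3541 bases, near the 3476.5 bases of all these genes. With genes cut into 3 equal groups by length, the median ratio in the shortest group was 0.80 over all genes, -0.05 in 7 enzymes and -1.24 in 6 others. In the middle group it was -0.0089 over all genes, -0.34 in 5 enzymes and -1.04 in 9 others. In the longest group it was -0.79 over all genes, -1.51 in 2 enzymes and -1.62 in 6 others. With the trend removed, the medians over NC replicate 1 were -0.56 in enzymes and -1.33 in the other genes, and over NC replicate 2 they were -0.23 and -0.79, so that the enzymes changed sign there. Over NC replicate 1, 2 of 15 enzymes and 2 of 24 others were then above 0, where 42% of all genes were. The part of transcript length in the difference between the classes was not tested. GC content of transcripts also moved with some ratios. Across the same genes its rho was 0.40 in siRNA210 over NC replicate 1 and -0.29 in siRNA596 replicate 1 over siRNA210. Median GC content was 54.0% in enzymes, 51.5% in other members and 50.6% in all these genes. With length and GC trends removed, medians in the first pair were 0.08 in enzymes and 0.09 in the others. In the second they were -0.07 and -0.13. The part of GC content was not tested.

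**Figure D5:**
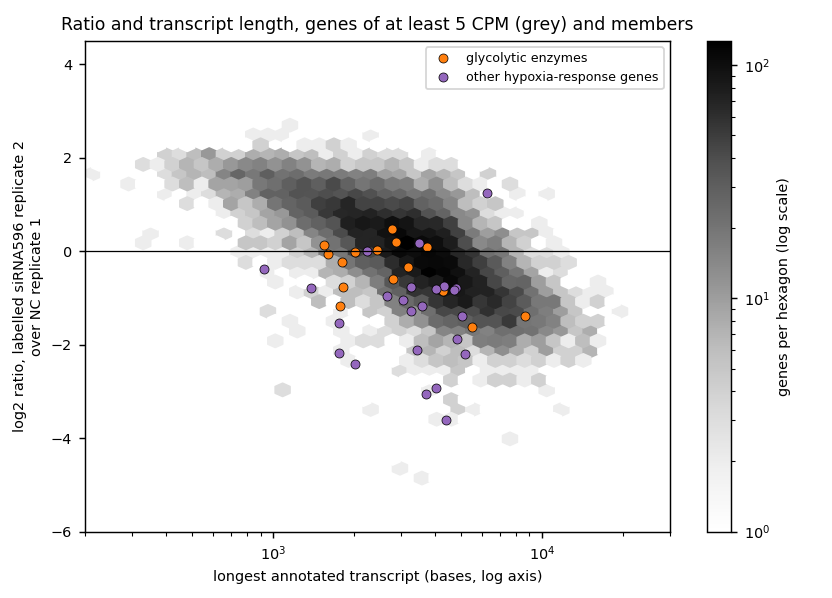
Log2 ratio of the library labelled siRNA596 replicate 2 over NC replicate 1 against the longest annotated transcript (log axis) for genes of at least 5 CPM (grey hexagons, darker with more genes), with members as coloured points. With the trend along the grey band removed, 4 of the 39 members remain above 0.

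No member passed the threshold between the siRNAs. In edgeR, siRNA210 against siRNA596 gave 0 members with an unadjusted P under 0.05 with 4 libraries (0.731% of all genes; smallest P of a member 0.178, smallest adjusted P 0.9998) and 0 with 5 (0.248% of all genes; smallest P 0.160). Of the 38 members, 34 were higher in siRNA210 with 4 libraries (median log2 difference 0.12, against -0.00039 over all genes). With 5 libraries, which include the library labelled siRNA596 replicate 2, 36 of 39 were (0.49, against 0.0011). In siRNA596 replicate 1 over siRNA210, 7956 of all 16142 genes and 5 of 39 members had a log2 ratio above 0. That ratio followed the GC content of transcripts, as given above. With 4 libraries each siRNA was 1 library, so the spread came from the 2 NC libraries alone, and with 5 siRNA210 was assumed to vary like the others. A P above the threshold does not show that the siRNAs act alike.

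Of 75 other genes of glycolysis and the hypoxia response, 64 were tested with 4 libraries and 41 of them had a log2 fold change above 0 (49.5% of all genes). At an unadjusted P under 0.05 in edgeR, 6 were higher and 2 lower (1.75% and 1.55% of all genes), with adjusted P of 0.967 in each. Among the higher ones were Gapdh (0.45 ± 0.12), the enolase copy Eno1b (0.33), the glycogen synthase gene Gys1 (0.28), the circadian repressor gene Bhlhe40 (0.33) and Zfp395 (0.22). Gapdh, a glycolytic dehydrogenase, gave 6854 and 5665 counts in NC, 8453 and 8303 in KD and 7173 in the fifth library. In CPM all 3 libraries labelled KD lay above both NC libraries (8.3% of all genes). They include the fifth library, in which Gas5 was above both NC libraries. The lower ones were the coactivator gene Crebbp (-0.27) and Tfrc (-1.06), which encodes the transferrin receptor and had 13662 counts in NC replicate 2 against 3677 to 5069 in the other 4 libraries. Without NC replicate 2, Tfrc stood at -0.13 and Gapdh at 0.27. With all 5 libraries 0 of the 64 had an unadjusted P under 0.05 (0.372% of all genes).

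Several of these counts are uncertain because the sequence is shared with other genes or runs opposite to another transcript. The share of 50-base stretches also found in another gene was 53.9% for Pgk1, 47.2% for Bnip3, and between 24.4% and 36.2% for Pgam1, Eno1 (with Eno1b), Pkm and Higd1a. For Gapdh it was 25.1%, shared with 223 other genes. The exons of Ankrd37, Higd1a and Bnip3 overlapped those of a gene on the opposite strand over 26.4%, 22.5% and 22.3% of their length, and since the strand setting of the counting is not given in the sources used here, reads of such partners cannot be told apart.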

How the data were processed

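The deposited counts give the unscaled number of reads assigned to a gene, which the authors made with Trimmomatic, HISAT2 2.1.0 (GRCm38), SAMtools 1.7 and featureCounts 2.0.1. From the authors' deposited comparison, made with DESeq2 1.26.0, only the mean signal (counts divided by size factors) was used, to find its libraries. Its fold changes and P-values were not used.

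Identifiers were named through the GENCODE annotation of GRCm38 (99.4% matched). Of 2 identifiers named Aldoa, the one with more reads was taken (the other had at most 165 counts). edgeR 4.0.16 in R 4.3.3 was run on all genes past filterByExpr with TMM factors and the quasi-likelihood test, KD against NC, with Benjamini-Hochberg adjustment. Ratios of 2 libraries are of TMM-scaled CPM with a prior count of 1, over the 16142 genes past the filter with all 5 libraries. RPKM uses the longest transcript. Length trends were medians in 20 bins. DESeq2 1.42.0 served as an alternative.

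The members and lists were chosen with earlier results of these data known, and the alternatives without length and GC trends were added after seeing the data. Counts per library are printed for members with an unadjusted P under 0.05, the 5 smallest P, the 5 widest ranges over 5 libraries among those of at least 5 CPM, and the highest per length in each of 10 roles. Pathway genes are named at an unadjusted P under 0.05. A gene under this rule is not reported here. Plots were made in Python 3.11.15 (matplotlib 3.10.9).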

Additional observations from a re-analysis of the deposited data

How the results depend on the processing

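The 5 members past an unadjusted P of 0.05 (3.3% of all genes were) became 0 with all 5 libraries (0.372%), 3 with library size only (3.37%) and 23 with no filter on low counts (3.44%), and 0 to 32 when 1 library was left out (1.01% to 16.5%). Genes past that P and 2-fold, 139 with 4 libraries, were 57 with all 5, 67 with the Wald test of DESeq2, 282 with no filter, 73 with a minimum of 10 counts in every library, and 125 to 374 when 1 library was left out. The cause of these changes was not tested. The median of the other hypoxia-response genes was -0.0064 with all 5 libraries, and 15 of the 38 members turned below 0. Among those past the threshold these were Slc2a1 (-0.023) and Ddit4 (-0.045), and among the others with counts given for each library they were Car9 (-0.33), Kdm3a (-0.26), Pdk1 (-0.14) and Bnip3 (-0.06). Leaving out 1 library moved the medians between 0.05 and 0.44 in enzymes and between 0.08 and 0.57 in the other genes, all above 0.

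siRNA596 and NC share replicate numbers, but the labels name no shared batch or day. The deviations of same-numbered libraries had a correlation of 0.150 over 12616 genes, from 2 pairs. That value cannot tell whether same-numbered libraries shared a batch or day, since the siRNA596 deviation holds the library labelled siRNA596 replicate 2. With the replicate number as a block, siRNA596 against NC gave 1 member past the unadjusted P, lower (2.7% of all genes in either direction), and 426 genes past that P and 2-fold, a median of 0.14 in enzymes and of -0.32 in the others, and log2 fold changes of -0.27 in Slc2a1, -0.24 in Hk1, -0.63 in Vegfa and -0.58 in Ddit4. Without the block these were 0 (0.259%) and 41, 0.11 and -0.22, and -0.22, -0.19, -0.30 and -0.39. Both fits contain the library labelled siRNA596 replicate 2.

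Of 100 alternative medians over pairs of libraries, 94 moved by less than the SD between the NC replicates in the class's median level (0.45 in enzymes and 0.52 in the others, log2 scale) without changing sign, ratios within 0.05 of 0 aside. The exceptions were all enzymes in the library labelled siRNA596 replicate 2. Over NC replicate 2 they had -0.082 with library size only, -0.23 with the length trend removed and -0.26 with length and GC trends removed. With both trends removed they had -0.73 over NC replicate 1, -0.82 over siRNA210 and -0.73 over siRNA596 replicate 1. That SD was larger than many of the medians, so a change within it does not show that a median is stable. Within it, the enzymes of the library labelled siRNA596 replicate 2 over NC replicate 1 went from -0.24 to -0.51 with library size only. With 1 or 2 libraries a group every value rests on few libraries, and Slc2a3, Car12, Aldoc and Adm also on few counts.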
